A study of Mus musculus with 8 samples.

Results

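The nuclear-encoded subunits of the respiratory chain and ATP synthase were followed across the 8 arrays of a knockdown of Irf7 in mouse mesenchymal stromal cells. Members were the genes whose probe set carried exactly 1 symbol and whose symbol began with Ndufa, Ndufb, Ndufc, Ndufs, Ndufv, Uqcr, Atp5 or Cox followed by a digit from 4 to 8, together with Sdha, Sdhb, Sdhc and Sdhd. Assembly factors of the Ndufaf series were left out. The rule gave 85 genes of 19505 measured, with 1 probe set each: 38 of complex I, 4 of complex II, 8 of complex III, 18 of complex IV and 17 of complex V. It used names alone and no measured value, but it was set with earlier results of these data known.

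The cells came from the inguinal fat pad of male FVB mice aged 12 months and grew in high-glucose DMEM with fetal bovine serum. All of them, controls included, had been infected with a lentivirus made from pLKO.1, a plasmid backbone for short hairpin RNAs. The vector was empty in 2 arrays, carried a scrambled hairpin (scramble) in 2, and carried a hairpin against Irf7 (shIRF7) in 4. Irf7 encodes a transcription factor of the type I interferon response, and the study asked about its role in aged stromal cells. The labels name a single Irf7 hairpin and do not say whether replicates were separate cultures, animals or infections. The p-values therefore set differences only against the spread among these arrays, and that spread may be technical.

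Complex I (NADH dehydrogenase) and complex II (succinate dehydrogenase) feed electrons into ubiquinone, complex III passes them to cytochrome c, and complex IV (cytochrome c oxidase) hands them to oxygen. Complexes I, III and IV pump protons across the inner mitochondrial membrane, and complex V (ATP synthase) uses that gradient to make ATP. Most subunits are encoded in the nucleus, and many of their promoters are known for sites of the nuclear respiratory factors NRF1 and GABP (an ETS factor). Cultured stromal cells can draw ATP from glycolysis as well as from this chain.

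Promoter windows of 250 bases before a start were taken from RefSeq (GRCm38.p6) for 70 of the 85 members. They were searched on both strands for an NRF1 core (GCATGCGC), an ETS core (CCGGAAG), a YY1 site (AAGATGGCG) and an interferon-response-like pair of repeats (GAAA, any 2 bases, GAAA), with overlapping matches kept. The NRF1 core was found in 8 of the 70 members (11.4%) and in 2.56% of 27025 genes with such a window. The ETS core was found in 12 members (17.1%) against 7.83% of all genes, the YY1 site in 1 (1.43%) against 0.71%, and the interferon-response-like pair in 2 (2.86%) against 3.46%. A match is a run of letters and no evidence of a bound factor. The windows below belong to 4 members whose shIRF7 values all lay above every control. They are examples and do not show how often a motif occurs: of 16 such members with a window, 4 hold the NRF1 core. Cox6a1 (chr5:115348959-115349208, minus strand) holds the NRF1 core on both strands, overlapping at 162 and 160 bases before the start, and an ETS core at 16. Sdhb (chr4:140961021-140961270, plus strand) and Ndufa8 (chr2:36049339-36049588, minus strand) hold the NRF1 core at 54 and 8 bases before the start. Ndufa10 (chr1:92473759-92474008, minus strand) holds none of the 4 motifs. Sequences read 5′ to 3′ on the gene's strand, and capitals mark motif matches.
Cox6a1: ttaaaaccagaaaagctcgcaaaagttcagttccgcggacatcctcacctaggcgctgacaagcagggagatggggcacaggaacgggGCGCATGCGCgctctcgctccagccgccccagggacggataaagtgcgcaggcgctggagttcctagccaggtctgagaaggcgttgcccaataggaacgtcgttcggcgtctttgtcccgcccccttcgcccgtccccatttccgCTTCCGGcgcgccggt
Sdhb: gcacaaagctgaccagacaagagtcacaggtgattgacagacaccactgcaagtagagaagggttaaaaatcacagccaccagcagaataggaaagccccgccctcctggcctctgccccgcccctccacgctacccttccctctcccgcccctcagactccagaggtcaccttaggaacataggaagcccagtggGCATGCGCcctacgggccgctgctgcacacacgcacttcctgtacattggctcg
Ndufa8: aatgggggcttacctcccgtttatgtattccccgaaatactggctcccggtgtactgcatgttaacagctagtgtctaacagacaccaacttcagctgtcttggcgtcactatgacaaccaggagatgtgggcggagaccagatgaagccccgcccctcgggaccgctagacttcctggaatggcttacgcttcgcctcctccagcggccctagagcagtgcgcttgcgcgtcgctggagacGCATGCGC
Ndufa10: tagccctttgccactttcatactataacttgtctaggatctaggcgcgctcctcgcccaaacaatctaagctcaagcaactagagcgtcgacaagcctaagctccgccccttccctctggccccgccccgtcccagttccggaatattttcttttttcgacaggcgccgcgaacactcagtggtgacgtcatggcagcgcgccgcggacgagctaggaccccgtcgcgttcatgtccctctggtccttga

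The deposited values are log2 signals, with medians over named probe sets of 5.35 to 5.45 on the 8 arrays. The 95th percentile of the negative control probe sets lay between 7.93 and 8.72, and 73 members exceeded it on at least 2 arrays. The other 12 were dim: Ndufa4l2, Ndufa7, Ndufb10 and Ndufv3 of complex I, Atp5k of complex V, and Cox4i2, Cox6a2, Cox6b2, Cox7a1, Cox7b2, Cox8b and Cox8c of complex IV. Negative control medians followed the replicate number, at 4.18 to 4.26 on the 3 arrays numbered 1 and 4.55 to 4.56 on the 3 numbered 2. Differences within those numbers therefore stand beside the pooled ones. Each sets 1 shIRF7 array against 1 array of each control. The numbers were not taken to pair shIRF7 with the controls, as deviations of same-numbered arrays correlated at -0.31 to -0.161. A within-number difference thus also carries the controls' own difference between replicate numbers. Irf7, the targeted gene, measured 9.55 and 9.61 in empty vector, 9.56 and 9.76 in scramble, and 4.42, 5.66, 6.47 and 6.79 in shIRF7. That is a difference of -3.79 (exact two-sided permutation p = 0.0286, the smallest that 4 against 4 arrays allow; limma adjusted p = 0.0692). All 4 shIRF7 values of Irf7 lay under the 95th percentile of the negative controls, so the size of this difference is limited by the background. Over 17 alternative settings the adjusted p of Irf7 ran from 0.0254, without shIRF7 replicate 1, to 0.316, without shIRF7 replicate 2. Of 8 measured mesenchymal stromal markers 7 exceeded the negative controls on at least 2 arrays, whereas 0 of 8 brown or beige fat, 0 of 7 macrophage, 0 of 7 endothelial and 0 of 6 epithelial markers did. Among mature adipocyte markers 2 of 7 did, and among striated muscle markers 1 of 8.

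In shIRF7 against both controls the subunit genes lay slightly higher as a group, and no single member passed the test. The median difference over the 85 members was 0.21 on the log2 scale, against 0.0017 over all 19505 genes and 0.023 over the 7288 genes above the negative controls. Differences lay above 0 for 71 members (83.5%), compared with 50.3% of all genes and 52.3% of those above the negative controls. At an adjusted p under 0.05 limma called 0 members, with 0.0308% of all genes called, and the lowest adjusted p of a member was 0.188, for Ndufa10. At an unadjusted p under 0.05, 14 members lay higher (16.5%), against 4.01% of all genes and 6.49% of those above the negative controls. Only 1 lay lower (Cox6a2), against 4.1% of all genes and 473 of the 7288 above the negative controls. Of the 14 higher members 2 were dim, and Cox6a2 was dim too. The 14 became 8 without scramble replicate 2 and 9 without either shIRF7 replicate 2 or shIRF7 replicate 4. These are bulk RNA samples, in which a different mix of cells and a different amount of RNA per cell cannot be told apart.

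By array, the median deviation of the 85 members from their control means was -0.016 and -0.020 in empty vector, 0.050 and -0.0042 in scramble, and 0.15, 0.13, 0.21 and 0.30 in shIRF7 replicates 1 to 4. All 4 shIRF7 arrays thus lay above all 4 controls. In complexes I, II and V every shIRF7 median likewise lay above every control median. In complexes III and IV the groups overlapped. The highest median in each of complexes I to V was that of shIRF7 replicate 4, and without that array the median difference over all members was 0.17.

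**Figure D1:**
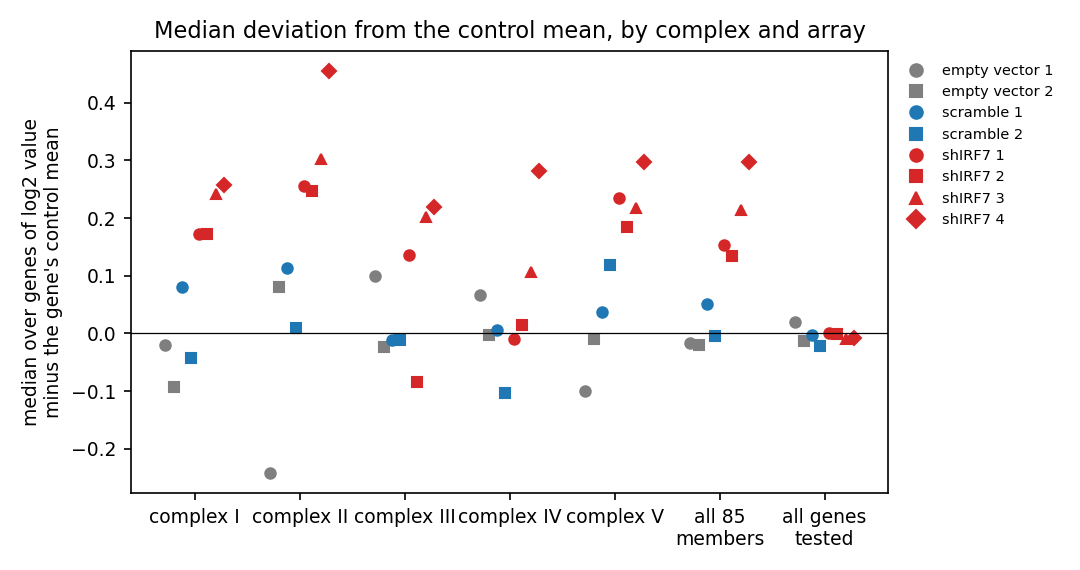
Median over genes of the log2 value minus the gene's control mean (vertical axis), for complexes I to V, all 85 members and all 19505 genes, with 1 point per array (grey empty vector, blue scramble, red shIRF7; shape gives the replicate number). The 4 shIRF7 points lie above all 4 control points in complexes I, II and V and over all members, and the groups overlap in complexes III and IV; over all genes the 8 points lie close to 0.

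For 18 members all 4 shIRF7 values lay above all 4 control values (21.2%, against 2.58% of all genes and 3.97% of the genes above the negative controls). No member had all 4 below, against 2.8% of all genes and 4.36% of those above the negative controls. The 18 were Ndufa10, Ndufs7, Ndufc1, Ndufa8, Ndufa9, Ndufa2, Ndufa4, Ndufs8, Ndufb8 and Ndufa12 of complex I, Sdhc and Sdhb of complex II, Cox6a1 and Cox8a of complex IV, and Atp5d, Atp5k, Atp5o and Atp5j of complex V. The gap between the lowest shIRF7 value and the highest control ran from 0.0071 for Ndufa12 to 0.51 for Ndufa10. After cyclic loess normalization between arrays 11 of the 18 kept this separation. Ndufa2, Ndufa8, Ndufa12, Ndufb8, Ndufc1, Sdhc and Atp5k did not. Of the 18, 16 had a promoter window. The NRF1 core stood in 4 of these (Sdhb, Cox6a1, Ndufa8 and Atp5k) and in 4 of the other 54 members with a window, the ETS core in 2 and 10, and the interferon-response-like pair in 1 (Ndufa9) and 1 (Ndufs3).

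**Figure D2:**
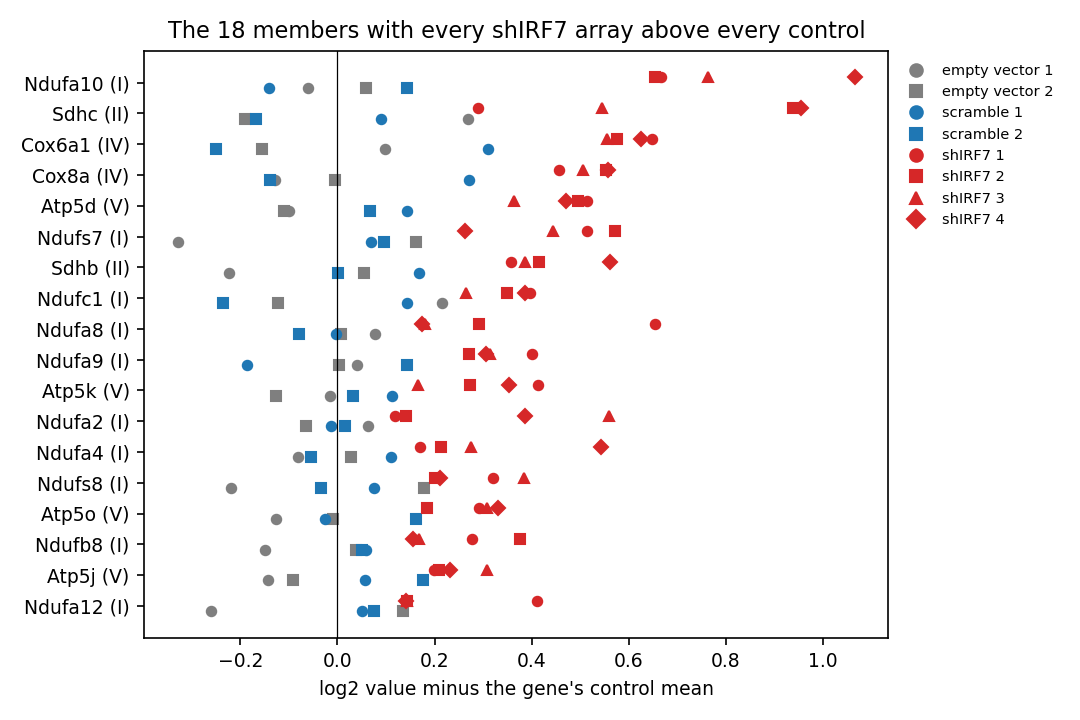
The 18 members with every shIRF7 value above every control value (rows, complex in brackets), drawn as log2 value minus the gene's control mean, 1 point per array (grey empty vector, blue scramble, red shIRF7; shape gives the replicate number). Ndufa10 shows the widest gap between the groups, 0.51, and Ndufa12 the narrowest, 0.0071.

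Complex I, the entry point for electrons from NADH, had a median difference of 0.23, with 33 of 38 members above 0 and 10 separated from the controls. Its 6 measured core subunits of the matrix arm, which carry the flavin and iron-sulfur clusters, had a median of 0.27 and its 32 accessory subunits 0.22. Ndufa10, an accessory subunit of the membrane arm, differed most among members above the negative controls. It measured 12.20 and 12.32 in empty vector, 12.12 and 12.40 in scramble, and 12.92, 12.91, 13.02 and 13.32 in shIRF7. Every shIRF7 value exceeded the highest control, and the 2 kinds of control overlapped. The difference was 0.79 (SE 0.15, 95% interval 0.43 to 1.14), or 1.73-fold, with a limma adjusted p of 0.188. It came to 0.77 within replicate 1 and 0.55 within replicate 2.

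Among the core subunits of complex I, Ndufs7, which holds the last iron-sulfur cluster before ubiquinone, measured 12.50 and 12.99 in empty vector, 12.90 and 12.92 in scramble, and 13.34, 13.40, 13.27 and 13.09 in shIRF7. The groups did not overlap, and empty vector replicate 1 was the lowest array. The difference was 0.45 (SE 0.16, adjusted p = 0.527). Ndufs8, another iron-sulfur subunit near the ubiquinone site, measured 12.90 and 13.30 in empty vector, 13.20 and 13.09 in scramble, and 13.44, 13.32, 13.50 and 13.33 in shIRF7. Here the separation was narrow, with 0.021 between the lowest shIRF7 array and the highest control. Ndufs1, the large iron-sulfur subunit, had the lowest difference of the complex, -0.36 (SE 0.27, adjusted p = 0.813). It measured 9.70 and 10.58 in empty vector, 9.76 and 10.54 in scramble, and 9.95, 10.05, 9.63 and 9.52 in shIRF7. Its controls differed by replicate number more than by vector, and the shIRF7 values lay around the lower pair.

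Among the accessory subunits, Ndufa9, which lies beside the ubiquinone channel, measured 11.04 and 11.00 in empty vector, 10.81 and 11.14 in scramble, and 11.40, 11.27, 11.31 and 11.30 in shIRF7, a difference of 0.32 (SE 0.13, adjusted p = 0.592). Its shIRF7 values sat within 0.13 of each other and above every control. Ndufa8, a subunit on the intermembrane-space side, measured 13.67 and 13.60 in empty vector, 13.59 and 13.51 in scramble, and 14.25, 13.89, 13.77 and 13.77 in shIRF7. The highest value belonged to shIRF7 replicate 1. Ndufc1 differed by 0.35, Ndufa2 by 0.30, Ndufb8 by 0.24 and Ndufa12 by 0.21, with adjusted p-values from 0.611 to 0.802. Ndufa4, named for complex I but now placed in complex IV, measured 14.63 and 14.74 in empty vector, 14.82 and 14.66 in scramble, and 14.88, 14.93, 14.99 and 15.26 in shIRF7, a difference of 0.30 (adjusted p = 0.655).

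The other 2 large differences of complex I were uneven over arrays. Ndufv3, an accessory subunit at the NADH-oxidising tip, measured 7.43 and 6.57 in empty vector, 7.80 and 6.81 in scramble, and 7.55, 8.22, 8.36 and 7.89 in shIRF7. It was dim, shIRF7 replicate 1 lay inside the control range, and the difference of 0.85 (SE 0.31, adjusted p = 0.545) was -0.065 within replicate 1 and 1.53 within replicate 2. Ndufb5, an accessory subunit of the membrane arm, measured 11.59 and 10.84 in empty vector, 11.32 and 11.03 in scramble, and 11.21, 11.96, 12.02 and 11.96 in shIRF7. Its difference was 0.59 (SE 0.25, adjusted p = 0.61), but -0.24 in the arrays numbered 1 and 1.02 in those numbered 2. Ndufs4, a regulatory accessory subunit, differed between the controls themselves, at 11.04 and 10.83 in empty vector and 11.43 and 11.39 in scramble. In shIRF7 it measured 10.91, 10.85, 10.98 and 11.00, inside the range of empty vector and below scramble. Ndufb4 and Ndufb4b are close copies whose probes may not be separable, and their differences were -0.082 and 0.041.

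Complex II, which oxidises succinate and belongs to the citric acid cycle as well, had the highest median difference, 0.32 over only 4 genes. It was 0.20 without empty vector replicate 1. Sdhc, a membrane anchor, measured 11.11 and 10.65 in empty vector, 10.93 and 10.67 in scramble, and 11.13, 11.78, 11.38 and 11.79 in shIRF7. The lowest shIRF7 array stood only 0.021 above the highest control. The difference was 0.68 (SE 0.21, 95% interval 0.20 to 1.16, adjusted p = 0.44), but 0.11 in the arrays numbered 1 and 1.12 in those numbered 2. Sdhb, the iron-sulfur subunit, measured 10.74 and 11.02 in empty vector, 11.13 and 10.97 in scramble, and 11.32, 11.38, 11.35 and 11.53 in shIRF7. This difference, 0.43 (SE 0.13, 95% interval 0.12 to 0.74, adjusted p = 0.463), was 0.39 within both replicate 1 and replicate 2. Sdhd, the other anchor, was 11.60 and 12.34 in empty vector, 11.36 and 12.31 in scramble, and 12.12, 11.98, 12.12 and 12.25 in shIRF7. Its controls split by replicate number around the shIRF7 values, so the difference of 0.22 was 0.65 within replicate 1 and -0.34 within replicate 2. Sdha, the flavoprotein that holds the catalytic site, was 10.17 and 10.54 in empty vector, 10.57 and 10.45 in scramble, and 10.32, 10.46, 10.60 and 10.01 in shIRF7. The groups overlapped, with a difference of -0.085 (SE 0.17, 95% interval -0.49 to 0.32, adjusted p = 0.952).

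Complex III, which oxidises ubiquinol, had the median difference nearest to 0, at 0.014, with 4 of 8 members above 0. Its mean difference was 0.12, against 0.11 in complex IV. The median was -0.0023 without shIRF7 replicate 1 and -0.0020 after cyclic loess, but 0.084 without shIRF7 replicate 2. By array, its median deviation was 0.14, 0.20 and 0.22 in shIRF7 replicates 1, 3 and 4, above the highest control (0.10). In shIRF7 replicate 2 it was -0.085, below every control. Uqcr10, a small accessory subunit, measured 10.69 and 10.45 in empty vector, 10.56 and 10.34 in scramble, and 11.20, 10.60, 10.79 and 11.49 in shIRF7. Replicates 1 and 4 were high and replicate 2 lay inside the control range, for a difference of 0.51 (SE 0.22, adjusted p = 0.615). Uqcrh, the hinge protein that helps bind cytochrome c1, differed by 0.39 (adjusted p = 0.65). Uqcrfs1, the Rieske iron-sulfur protein, measured 11.30 and 11.51 in empty vector, 11.63 and 11.50 in scramble, and 11.60, 11.66, 12.06 and 12.00 in shIRF7, a difference of 0.35 (adjusted p = 0.647). Replicates 3 and 4 were highest, and replicate 1 lay inside the control range. The core proteins Uqcrc1 and Uqcrc2 differed by -0.067 and -0.099. Uqcrb, a small subunit near the ubiquinone site, was lowest at -0.11 (SE 0.23).

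**Figure D3:**
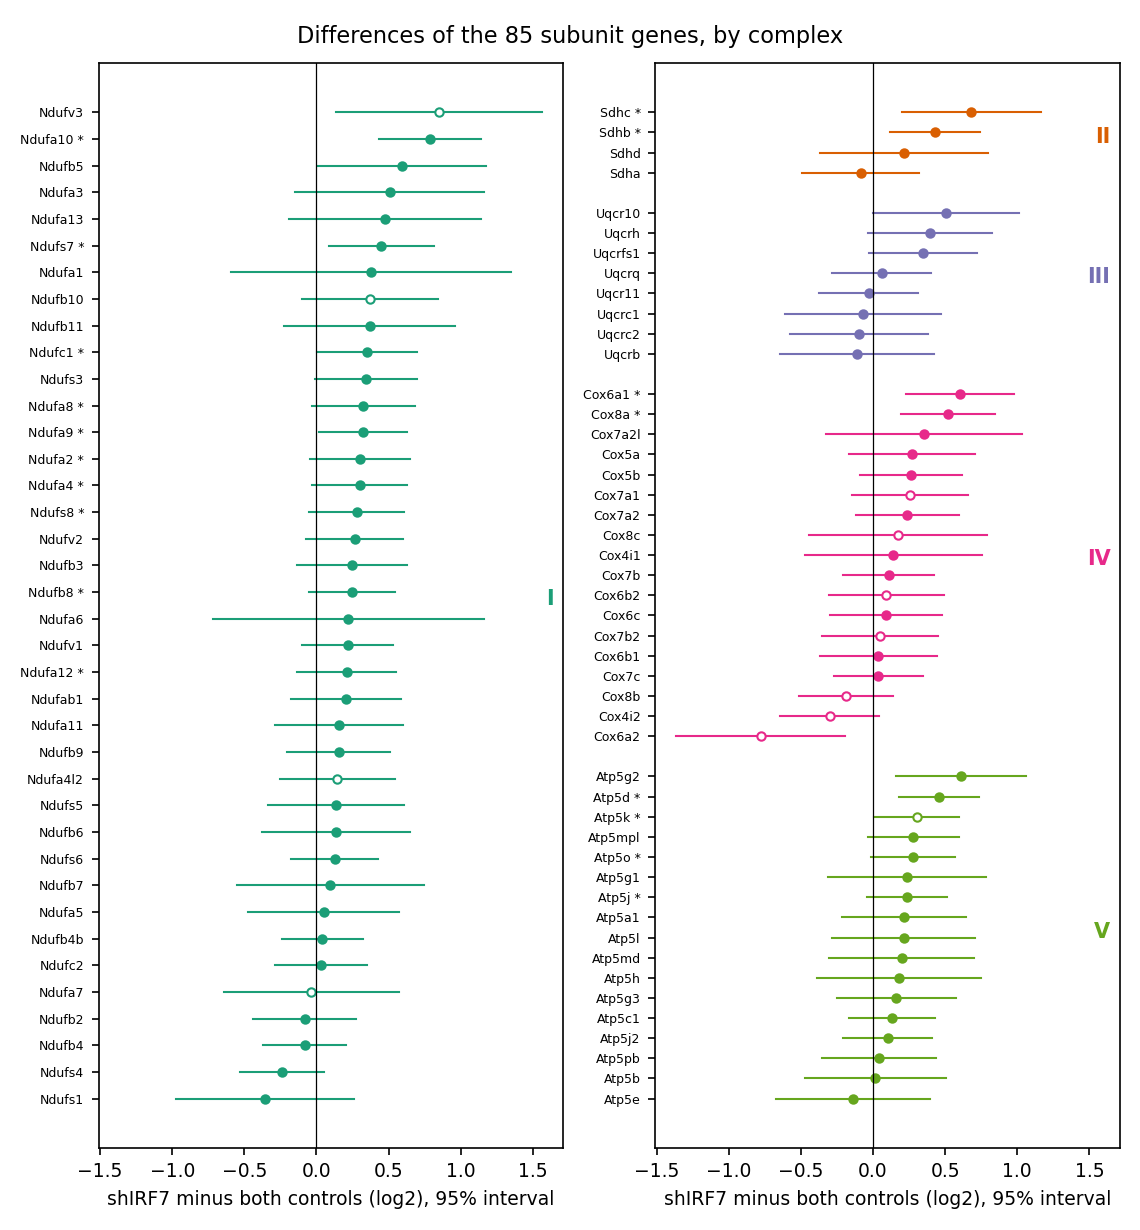
Difference between shIRF7 and both controls for each of the 85 members (log2, points) with its 95% interval from limma (lines), grouped by complex and sorted within it. Open points are the 12 dim members and a star marks the 18 members whose shIRF7 values all lay above the controls; most points lie right of 0, Ndufv3 lies highest at 0.85 and Cox6a2 lowest at -0.78.

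Complex IV, the oxidase, had a median difference of 0.13 over all 18 members, of which 7 were dim tissue-type isoforms; without dim genes the median was 0.24. The 2 members that stood apart from every control were common isoforms of small subunits. Cox6a1 measured 16.57 and 16.31 in empty vector, 16.78 and 16.22 in scramble, and 17.12, 17.05, 17.03 and 17.10 in shIRF7. The 4 shIRF7 values lay within 0.091 of each other, while the controls spread over 0.56. The difference was 0.60 (SE 0.16, 95% interval 0.23 to 0.98), or 1.52-fold (adjusted p = 0.357), and it reached 0.44 in the arrays numbered 1 and 0.78 in those numbered 2. Cox8a measured 14.87 and 14.99 in empty vector, 15.27 and 14.86 in scramble, and 15.46, 15.55, 15.51 and 15.56 in shIRF7, a difference of 0.52 (SE 0.14, adjusted p = 0.363).

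The counterparts of those subunits in striated muscle were dim on every array. Cox6a2 measured 5.12 and 5.82 in empty vector, 4.76 and 5.44 in scramble, and 4.05, 4.61, 4.60 and 4.77 in shIRF7. All of these values lie under the 95th percentile of the negative controls, and shIRF7 replicate 4 passed the lowest control by 0.011. Its difference, -0.78 (SE 0.25, adjusted p = 0.485), was the lowest of all members. Cox8b differed by -0.19 and Cox8c, another isoform of the same subunit, by 0.17. For subunit 4, the common Cox4i1 measured 14.05 and 12.85 in empty vector, 13.37 and 12.89 in scramble, and 13.31, 13.44, 13.38 and 13.61 in shIRF7. Empty vector replicate 1 was its highest array and the difference was 0.14 (SE 0.26). The oxygen-dependent Cox4i2 was dim and differed by -0.30 (adjusted p = 0.681).

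For subunit 7a, the common Cox7a2 differed by 0.24 and the muscle isoform Cox7a1, which was dim, by 0.25. Cox7a2l, which joins complexes III and IV into supercomplexes, measured 13.76 and 12.52 in empty vector, 12.95 and 12.52 in scramble, and 12.86, 13.46, 13.45 and 13.38 in shIRF7. Its highest value was a control, and the difference of 0.35 was -0.50 within replicate 1 and 0.94 within replicate 2. Cox6b1 and Cox7b, the common forms of their subunits, differed by 0.038 and 0.11. Their testis-type forms Cox6b2 and Cox7b2 were dim and differed by 0.093 and 0.050. Ndufa4l2, the oxygen-dependent relative of Ndufa4, was dim too and differed by 0.15.

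Complex V, the ATP synthase, had a median difference of 0.21 and 16 of 17 members above 0. The 12 subunits outside the catalytic F1 part all lay above 0, with a median of 0.23, and the 5 subunits of F1 had a median of 0.13. Atp5d, the delta subunit of the central stalk, measured 16.02 and 16.01 in empty vector, 16.26 and 16.19 in scramble, and 16.63, 16.61, 16.48 and 16.59 in shIRF7. The groups stood 0.22 apart. The difference was 0.46 (SE 0.12, 95% interval 0.18 to 0.74, adjusted p = 0.332), or 0.49 in the arrays numbered 1 and 0.52 in those numbered 2. The other F1 subunits differed less, with Atp5a1 (alpha) at 0.22, Atp5c1 (gamma) at 0.13, Atp5b (beta) at 0.014 and Atp5e (epsilon) at -0.14, the lowest of the complex.

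In the peripheral stalk, which holds the F1 head still, Atp5o measured 13.33 and 13.45 in empty vector, 13.43 and 13.62 in scramble, and 13.75, 13.64, 13.76 and 13.79 in shIRF7, a difference of 0.28 (SE 0.12, adjusted p = 0.632). Atp5j measured 13.17 and 13.22 in empty vector, 13.36 and 13.48 in scramble, and 13.51, 13.52, 13.61 and 13.54 in shIRF7, a difference of 0.24 (SE 0.12, adjusted p = 0.685). In both, scramble replicate 2 came within 0.023 of the lowest shIRF7 array. Atp5k, a membrane subunit, was dim and differed by 0.30 (SE 0.13, adjusted p = 0.606).

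Atp5g1, Atp5g2 and Atp5g3 encode the same mature protein of the proton-carrying c ring, and their arrays were ordered differently. Atp5g2 measured 15.61 and 14.88 in empty vector, 15.19 and 14.76 in scramble, and 15.60, 15.81, 15.69 and 15.76 in shIRF7, a difference of 0.61 (SE 0.19, adjusted p = 0.48). Empty vector replicate 1 reached the level of the shIRF7 arrays. Atp5g1 measured 14.59 and 15.60 in empty vector, 15.35 and 15.72 in scramble, and 15.76, 15.38, 15.47 and 15.61 in shIRF7, a difference of 0.24 (SE 0.24). It was 0.78 within replicate 1 and -0.28 within replicate 2, where Atp5g2 gave 0.21 and 0.99. Atp5g3 differed by 0.16, with 0.49 within replicate 1 and -0.32 within replicate 2.

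Against scramble alone, the control with a hairpin, limma called 0 members at an adjusted p under 0.05 (0.00513% of all genes), and the median difference was 0.19. At an unadjusted p under 0.05, 7 members were higher (2.87% of all genes) and 1 lower (3.27%). Ndufa10 gave 0.79 (SE 0.19, adjusted p = 0.447), Atp5g2 0.74, Sdhc 0.72, Cox6a1 0.57 and Ndufs4, the lower one, -0.47 (SE 0.15, adjusted p = 0.663). Against empty vector alone limma again called 0 members (0% of all genes), and the median was 0.23. Here 10 members were higher at an unadjusted p under 0.05 (2.54% of all genes) and 1 lower (3.3%). Ndufa10 gave 0.79 (adjusted p = 0.508), Ndufv3 1.01, Sdhc 0.64, Cox6a1 0.63, Atp5d 0.57 and Cox6a2, the lower one, -0.97. Both comparisons share the 4 shIRF7 arrays. Scramble against empty vector gave a median of 0.0060 over the members and 0 calls (0% of all genes). At an unadjusted p under 0.05 Ndufs4 alone was higher, by 0.47 (SE 0.18), with 0.779% of all genes higher and 1.15% lower.

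Within replicate 1 the median difference over the members was 0.13 and within replicate 2 it was 0.16. Over all genes these medians were -0.020 and 0.014, and over the genes above the negative controls 0.082 and -0.075. The difference was above 0 in both for 30 members (35.3%), against 19.4% of all genes and 15.9% of those above the negative controls. It was below 0 in both for 13 of the 85 members. The same held for 20% of all genes and for 1141 of the 7288 genes above the negative controls. The 30 include, by definition, the 18 members that stood above every control. By complex the medians within replicates 1 and 2 were 0.12 and 0.25 in complex I, 0.25 and 0.18 in complex II, 0.13 and -0.16 in complex III, -0.058 and 0.093 in complex IV, and 0.24 and 0.11 in complex V. Across members the differences of replicate 1 and replicate 2 had a Pearson r of -0.15 (Spearman rho -0.20, 85 genes), and over all genes r was -0.40. These points share the arrays' RNA and normalization.

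**Figure D4:**
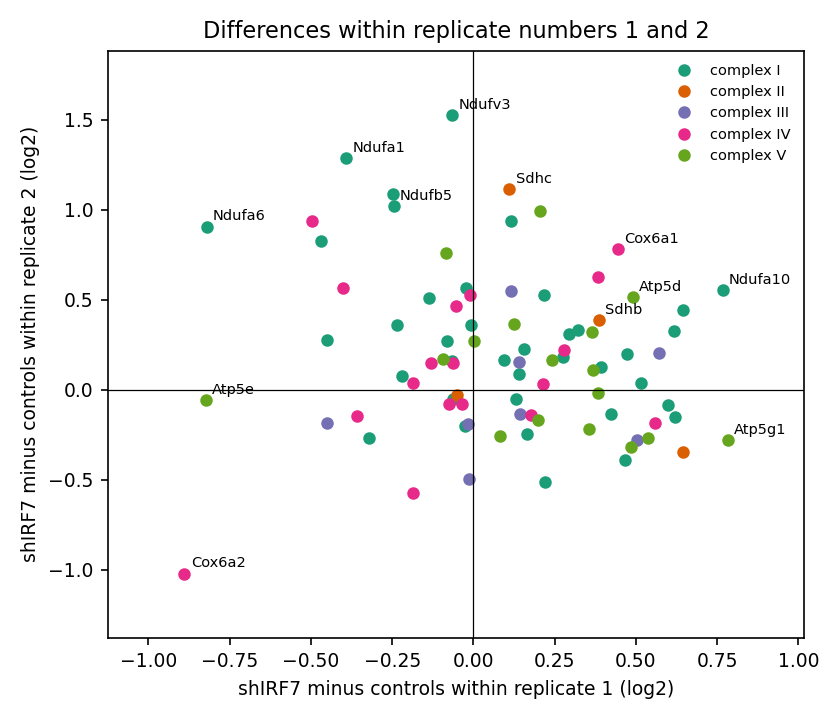
Difference between shIRF7 and the mean of both controls within replicate 1 (horizontal, log2) and within replicate 2 (vertical, log2), 1 point per member, coloured by complex. Ndufa10, Cox6a1, Atp5d and Sdhb lie to the upper right, Cox6a2 to the lower left, and Ndufv3, Ndufa1, Ndufa6 and Ndufb5 are above 0 only within replicate 2.

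The 2 kinds of control shared a difference between replicate numbers. Replicate 2 minus replicate 1 in empty vector and in scramble had a Pearson r of 0.80 over the members (Spearman rho 0.77) and 0.76 over all genes. Ndufa6, an accessory subunit of complex I, was lower in replicate 2 by 1.85 in empty vector (12.75 and 10.90) and by 0.89 in scramble (11.97 and 11.08). Ndufa1, a small membrane-arm subunit, was lower there by 1.81 and 1.21. Sdhd was higher in replicate 2 by 0.74 and 0.95, and Ndufs1 by 0.87 and 0.79. A difference over 0.5 in both controls, a limit chosen after the values were seen, was met by 8 of the 85 members lower in replicate 2 (9.77% of all genes) and 6 higher (11.4%). Among the 73 members above the negative controls 6 were lower and 5 higher. Of all 7288 genes above the negative controls 1188 were lower and 1636 higher. The members' SD over the 4 controls had a median of 0.22, against 0.16 over the 4 shIRF7 arrays.

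**Figure D5:**
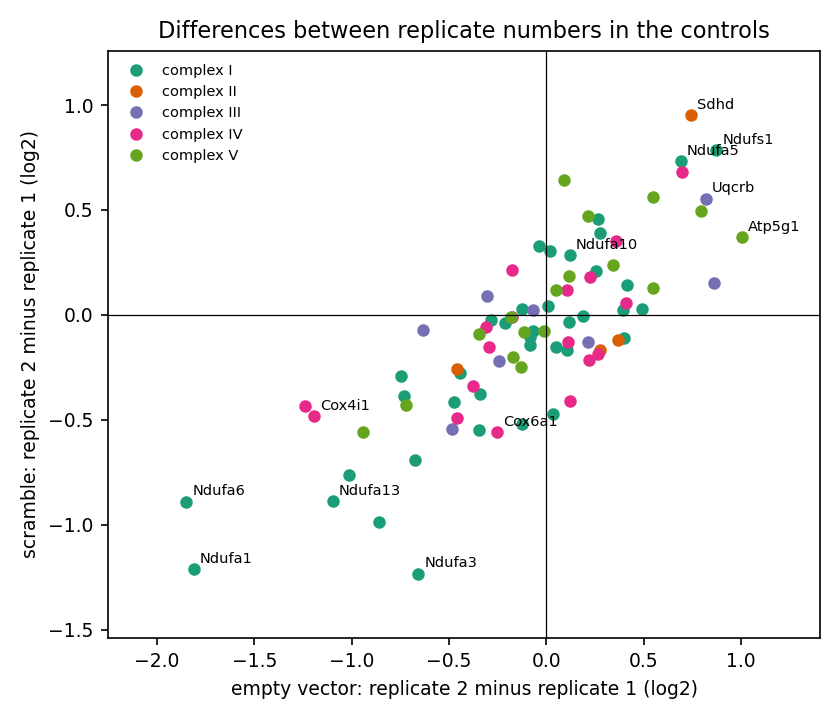
Replicate 2 minus replicate 1 (log2) in empty vector (horizontal) and scramble (vertical), 1 point per member, coloured by complex. The points run from Ndufa1 and Ndufa6 at the lower left to Sdhd and Ndufs1 at the upper right, while Ndufa10 and Cox6a1 lie nearer the middle.

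The controls' replicate numbers also differed in genes of cell division. The mean log2 value of 23 mitosis genes was 8.48 and 12.55 in empty vector, 10.67 and 12.58 in scramble, and 11.93, 11.31, 11.40 and 11.78 in shIRF7. All 4 shIRF7 arrays lay inside the control range. The median difference of these genes was 0.48, made up of 2.34 within replicate 1 and -1.30 within replicate 2, and limma called 0 of them (0 also at an unadjusted p under 0.05). Ccnb2, a mitotic cyclin, differed by 1.42 (adjusted p = 0.69) and Bub1b, a spindle checkpoint kinase, by 0.90 (adjusted p = 0.841). The mesenchymal stromal markers had mean values of 13.17 to 13.42 in the controls and 12.38 to 12.87 in shIRF7. Their differences ran from -2.15 to 0.10 with a median of -0.56, and 2 of 8 lay above 0. In limma 0 of 8 passed an adjusted p of 0.05, and 4 lay lower at an unadjusted p under 0.05 (4.1% of all genes). Brown or beige fat markers, among them the members Cox7a1 and Cox8b, stayed dim in both, at 3.49 to 3.59 and 3.45 to 3.67. Mature adipocyte markers were at 5.07 to 5.43 and 4.92 to 5.46. The part of the mitosis genes and of the stromal markers in the subunit differences was not tested.

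Other mitochondrial genes, nearly all outside the subunits, were counted in the same comparison, and limma called none of them at an adjusted p under 0.05. Assembly factors, which build the complexes, had a median of 0.059 over 45 measured genes. At an unadjusted p under 0.05, 5 lay higher (11.1%, against 4.01% of all genes) and 6 lower (4.1% of all genes). Ttc19, which helps complex III mature, measured 8.91 and 9.54 in empty vector, 8.87 and 9.34 in scramble, and 7.72, 7.83, 7.61 and 7.31 in shIRF7. All 4 shIRF7 arrays lay below all controls, as in 3 of the 45 assembly factors and 2.8% of all genes. The difference of Ttc19 was -1.54 (SE 0.21, limma adjusted p = 0.0716). Its 4 shIRF7 values lay under the 95th percentile of the negative controls, so the size of this difference is limited by the background. Over 17 alternative settings its adjusted p ran from 0.0299, with both controls as 1 group, to 0.655, with the replicate block, and 1 setting passed the threshold. Cox10, which makes the heme of complex IV, gave -1.17 (adjusted p = 0.506), made up of -0.0087 in the arrays numbered 1 and -1.89 in those numbered 2.

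Electron carriers and partner proteins had a median of 0.15 over 17 genes. At an unadjusted p under 0.05, 2 lay higher (11.8%, against 4.01% of all genes) and 0 lower (4.1% of all genes). The 17 include Atp5md (0.20) and Atp5mpl (0.28), which are members already counted in complex V, and Aox1, an aldehyde oxidase. Coq5, an enzyme of ubiquinone synthesis, measured 11.32 and 12.31 in empty vector, 11.73 and 12.04 in scramble, and 12.21, 12.84, 12.69 and 12.61 in shIRF7, a difference of 0.74 (SE 0.25, adjusted p = 0.503). Empty vector replicate 2 overlapped the shIRF7 values. Coq9, of the same pathway, was dim and differed by 0.45 (adjusted p = 0.451). Regulators of mitochondrial biogenesis and of mitochondrial DNA had a median of -0.021 over 23 genes. At an unadjusted p under 0.05, 1 lay higher (4.35%, against 4.01% of all genes) and 0 lower (4.1% of all genes). The largest differences there, of the dim genes Tfb1m and Polg2, were 0.49 and 0.42 (adjusted p = 0.793 and 0.856).

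The citric acid cycle and pyruvate dehydrogenase had a median of 0.19 over 16 genes, but 0.58 within replicate 1 and -0.49 within replicate 2. At an unadjusted p under 0.05, 2 genes lay higher (12.5%, against 4.01% of all genes) and 2 lower (4.1% of all genes). Dlat, the acetyltransferase core of pyruvate dehydrogenase, measured 11.35 and 11.91 in empty vector, 11.77 and 11.97 in scramble, and 11.13, 11.09, 10.88 and 10.30 in shIRF7. Every shIRF7 array lay below every control, for a difference of -0.90 (SE 0.23, adjusted p = 0.332). Dld, the dehydrogenase shared by several of these complexes, showed the same separation, with a difference of -0.71 (SE 0.19, adjusted p = 0.378). That separation held for 2 of the 16 genes, against 2.8% of all genes. Channels and import proteins had a median of -0.040 over 21 genes. At an unadjusted p under 0.05, 2 lay higher (9.52%, against 4.01% of all genes) and 0 lower (4.1% of all genes). Vdac1, the outer-membrane channel, differed by 0.46 (adjusted p = 0.596) and Timm44, an import motor subunit, by 0.39 (adjusted p = 0.856). For scale, 21 interferon-stimulated genes had a median of -1.92, and 3 passed the test, against 0.0308% of all genes. Ifi27l2a fell by 4.01, Bst2 by 2.89 and Adar by 1.63 (limma adjusted p = 0.0483 for each). Over the 17 alternative settings Ifi27l2a passed in 9, Bst2 in 6 and Adar in 6, and all 3 missed the threshold without shIRF7 replicate 2, with adjusted p from 0.303 to 0.316. The 13 mitochondrially encoded subunits were not analysed here.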

How the data were processed

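Total RNA of 8 samples was biotin-labelled and hybridised to Affymetrix mouse arrays. The deposited log2 values, which ran from 1.66 to 18.9, are the authors' RMA summaries. Per the submitters' processing notes, the software was Affymetrix Expression Console, version 1.4.1.46. For the arrays' probes a genome build is not given in the sources that were used. Of 28846 probe sets 19572 had 1 gene symbol, which gave 19505 genes with the brightest probe set kept. Limma 3.58.1 in R 4.3.3 was fitted over all 8 arrays with a mean per group (lmFit, eBayes), so the groups shared a spread, with Benjamini-Hochberg adjustment over all genes and a threshold of 0.05. Each SE is limma's moderated SE, and a control mean weights both kinds of control equally. The procedure was tested on simulated data. Precision is limited by how many arrays there are.

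The members and lists were chosen with earlier results of these data known. Genes named were Irf7, the 4 Sdh genes, members past the threshold, members whose shIRF7 values all lay on one side of the controls, the 3 highest and the lowest differences per complex, the paired isoforms, the c ring genes and, per other list, the genes past the threshold or else the 2 largest differences. Further members were named after their values were seen: Ndufs4, Ndufb4, Ndufb4b, Ndufa1, Ndufa6, Uqcrc1, Uqcrc2, Ndufs3, Atp5a1, Atp5b and Atp5c1. Atp5md and Atp5mpl were named as members that also stand in the list of electron carriers and partner proteins. Alternatives tried were cyclic loess, eBayes with trend and robust options, a filter on dim genes, other treatments of probe sets, both controls as 1 group, a replicate block, shIRF7 replicates 2 and 3 averaged, updated symbols and leaving out each array. Deviations of same-numbered arrays correlated at 0.757 between the controls but at -0.31 to -0.161 between shIRF7 and the controls, so the numbers were not taken to pair shIRF7 with the controls.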

Additional observations from a re-analysis of the deposited data

Results flagged for a closer look

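Among 66 sets of 4 shIRF7 values, those of 60 named genes and 6 medians over the members and complexes, 7 held an array far from the other 3. The limit used is passed by about 1 in 20 independent, normally distributed sets. These sets share the same 4 arrays and many genes were named by their values, so 7 cannot be set against that rate. Of these arrays 5 were shIRF7 replicate 1. Ndufb5 measured 11.21 in shIRF7 replicate 1 and 11.96 to 12.02 in the others. Cox7a2l measured 12.86 there and 13.38 to 13.46 in the others. Ndufa12 measured 14.84 there and 14.57 in each of the others. Timm44 measured 9.69 there and 10.64 to 10.77 in the others. The dim Cox8b measured 2.63 there and 2.86 to 2.90 in the others. The dim Cox4i2 measured 3.82 in shIRF7 replicate 2 and 4.17 to 4.19 in the others, and the dim Cox7b2 measured 3.78 in shIRF7 replicate 3 and 3.21 to 3.30 in the others.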

How the results depend on the processing

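No member passed an adjusted p of 0.05 in limma in any comparison under any alternative (lowest 0.107, with both controls as 1 group). The count of members higher at an unadjusted p under 0.05, 14 in shIRF7 against both controls, was 9 with eBayes trend and robust fitting, 8 without dim genes, 9 with shIRF7 replicates 2 and 3 averaged, and 8 to 18 when an array was left out. The count of lower members, 1, was 0 without dim genes and 0 to 1 when an array was left out. Members with every shIRF7 value above every control numbered 18, but 11 after cyclic loess and 18 to 27 with an array left out; those below numbered 0, and 0 to 2. Leaving out an array can only add to these counts, so their ranges say nothing about stability. The complex IV median moved from 0.13 to 0.24 without dim genes. With an array left out the median over members ranged from 0.17 to 0.22, complex I from 0.21 to 0.27, complex II from 0.20 to 0.45, complex III from -0.0023 to 0.12, complex IV from 0.092 to 0.18 and complex V from 0.16 to 0.27. With the replicate block the median over members was 0.15, 3 members were higher at an unadjusted p under 0.05, and the lowest adjusted p was 0.918. That fit has 2 residual degrees of freedom in place of 5 and calls 0 of all genes. Of 44 named members 2 changed sign with the block and 0 to 4 when an array was left out. Where no construction accounts for a shift, the cause was not tested. Signals of the 12 dim members are limited by the background.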
